A study of Mus musculus with 24 samples.

Results

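The genes described here mark the cells of blood vessels in the brain. They are 10 genes of endothelial cells and pericytes, namely Cldn5, Pecam1, Flt1, Kdr, Tek, Abcb1a, Ly6c1, Rgs5, Pdgfrb and Vtn, and every array probe set annotated to 1 of them alone was taken. This gave 18 probe sets of 9 genes, out of 45037 probe sets and 18193 genes tested: 4 each for Flt1 and Rgs5, 2 each for Abcb1a, Pdgfrb and Vtn, and 1 each for Cldn5, Pecam1, Kdr and Tek. Ly6c1 had no probe set of its own. Its only probe set, 1421571_a_at, is also assigned to Ly6c2, a close relative expressed in white blood cells, so it is described separately and is not in any count below.

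RNA came from brains of male mice aged 12 ± 1 weeks, all taken at zeitgeber time 6, which is 6 h after light onset. Before that they had either been kept awake for 6 h by gentle handling (sleep deprivation, SD) or been left undisturbed (control). There were 5 groups on 24 arrays. Pull-down after SD (n = 6 arrays) and pull-down control (n = 6) hold polyadenylated RNA precipitated on anti-FLAG beads by mRNA tagging, a method that expresses a poly(A)-binding protein with a FLAG tag in chosen cells, here cells expressing Homer1a, a short form of a postsynaptic scaffold protein induced by neuronal activity. Whole brain after SD (n = 4) and whole-brain control (n = 4) hold total RNA. Supernatant (n = 4) holds the total RNA that remained in the lysate after a pull-down, labelled as from cells negative for Homer1a. The brains used for precipitation had been perfused with heparin and saline and then with 1% formaldehyde, whereas no perfusion is described for whole brain, and amplification of 10 ng RNA is described for the precipitated RNA. The mouse strain, the promoter that drives the tagged protein and its integration are not given in the sources used here, nor is any link between a supernatant and a pull-down. By their titles, supernatants 14 and 15 are sleep-deprived and supernatant 16 is a control. Supernatant 13 is called sleep-deprived in 1 label and control in another. The 4 supernatants therefore formed a single group, which mixes both treatments.

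Endothelial cells line the brain's capillaries and are sealed by tight junctions, which together with efflux pumps form the blood-brain barrier. Pericytes lie on the outer side of the capillary wall and share its basement membrane. Both cell types depend on a few ligand and receptor pairs: vascular endothelial growth factor (VEGF) acts on Flt1 and Kdr, angiopoietins act on Tek, and platelet-derived growth factor B from endothelial cells holds pericytes in place through Pdgfrb. These genes are used as vascular markers, because neurons and most glia express them little or not at all.

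The regions upstream of 4 genes are shown because these genes include the probe sets with the largest differences between extracts. RefSeq promoter windows on GRCm38.p6 were found for 8 of the 10 genes. Each sequence is the 250 bases before the annotated start, read 5′ to 3′ on the gene's strand. Capitals mark matches to AGGAAG, a form of the core bound by ETS factors, which are prominent in endothelial cells, or to TATAAA, the TATA box, on either strand. The coordinates are chr1:169655251-169655500 (plus strand) for Rgs5, chr11:78498870-78499119 (plus) for Vtn, chr16:18776597-18776846 (plus) for Cldn5 and chr5:147726012-147726261 (minus) for Flt1.
Rgs5: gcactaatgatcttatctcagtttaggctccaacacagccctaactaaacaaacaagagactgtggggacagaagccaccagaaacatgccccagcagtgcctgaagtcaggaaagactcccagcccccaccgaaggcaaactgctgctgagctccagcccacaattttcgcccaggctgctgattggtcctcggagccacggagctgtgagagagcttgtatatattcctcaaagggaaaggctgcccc
Vtn: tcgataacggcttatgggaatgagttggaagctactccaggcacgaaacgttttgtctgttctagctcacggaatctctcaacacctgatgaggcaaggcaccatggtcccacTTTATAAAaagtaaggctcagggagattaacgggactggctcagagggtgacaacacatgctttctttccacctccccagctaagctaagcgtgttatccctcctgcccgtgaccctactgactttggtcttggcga
Cldn5: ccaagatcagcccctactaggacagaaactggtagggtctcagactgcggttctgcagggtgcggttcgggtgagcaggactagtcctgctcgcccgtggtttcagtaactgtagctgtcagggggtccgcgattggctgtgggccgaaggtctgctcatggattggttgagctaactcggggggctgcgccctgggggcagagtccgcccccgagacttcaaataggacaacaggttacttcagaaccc
Flt1: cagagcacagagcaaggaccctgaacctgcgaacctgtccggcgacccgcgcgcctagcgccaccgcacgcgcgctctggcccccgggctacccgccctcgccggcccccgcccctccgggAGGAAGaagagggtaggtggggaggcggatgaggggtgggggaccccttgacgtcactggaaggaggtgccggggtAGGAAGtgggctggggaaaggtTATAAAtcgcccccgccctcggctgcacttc
AGGAAG or its reverse complement CTTCCT was present at 2 places in the Flt1 window, beginning 129 and 53 bases before the start, and TATAAA at 1 place, beginning 31 bases before it. In the Vtn window the capitals are a single stretch in which TATAAA and its reverse complement TTTATA overlap. The Rgs5 and Cldn5 windows held neither motif. Among all 32851 windows of this length, 29.5% held AGGAAG and 12.4% held TATAAA on either strand. A match is a description of letters only, and binding was not measured in this series.

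Averaged over the 18 probe sets, the deposited level was highest in whole brain, intermediate in supernatant and lowest in pull-down. Single probe sets departed from this order: the whole-brain mean was below the supernatant mean for Pecam1, Pdgfrb 1417148_at and Vtn 1455098_a_at, none of which passed in that comparison. The values are log2 RMA intensities, on which a difference of 1 is a 2-fold difference. The mean of the 18 probe sets ranged over the 12 pull-down arrays from 4.50 to 5.47, over the 8 whole-brain arrays from 7.36 to 7.59 and over the 4 supernatants from 6.16 to 6.95, so the 3 extracts did not overlap as deposited. With the array's median subtracted, the same mean ranged from -0.24 to 0.36 in pull-down, 1.12 to 1.40 in whole brain and 0.07 to 0.80 in supernatant, so that pull-down and supernatant overlapped and whole brain stayed above both. Differences are given ± SE with p-values from limma, adjusted by Benjamini-Hochberg over all 45037 probe sets, and an adjusted p below 0.05 counts as passing.

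**Figure D1:**
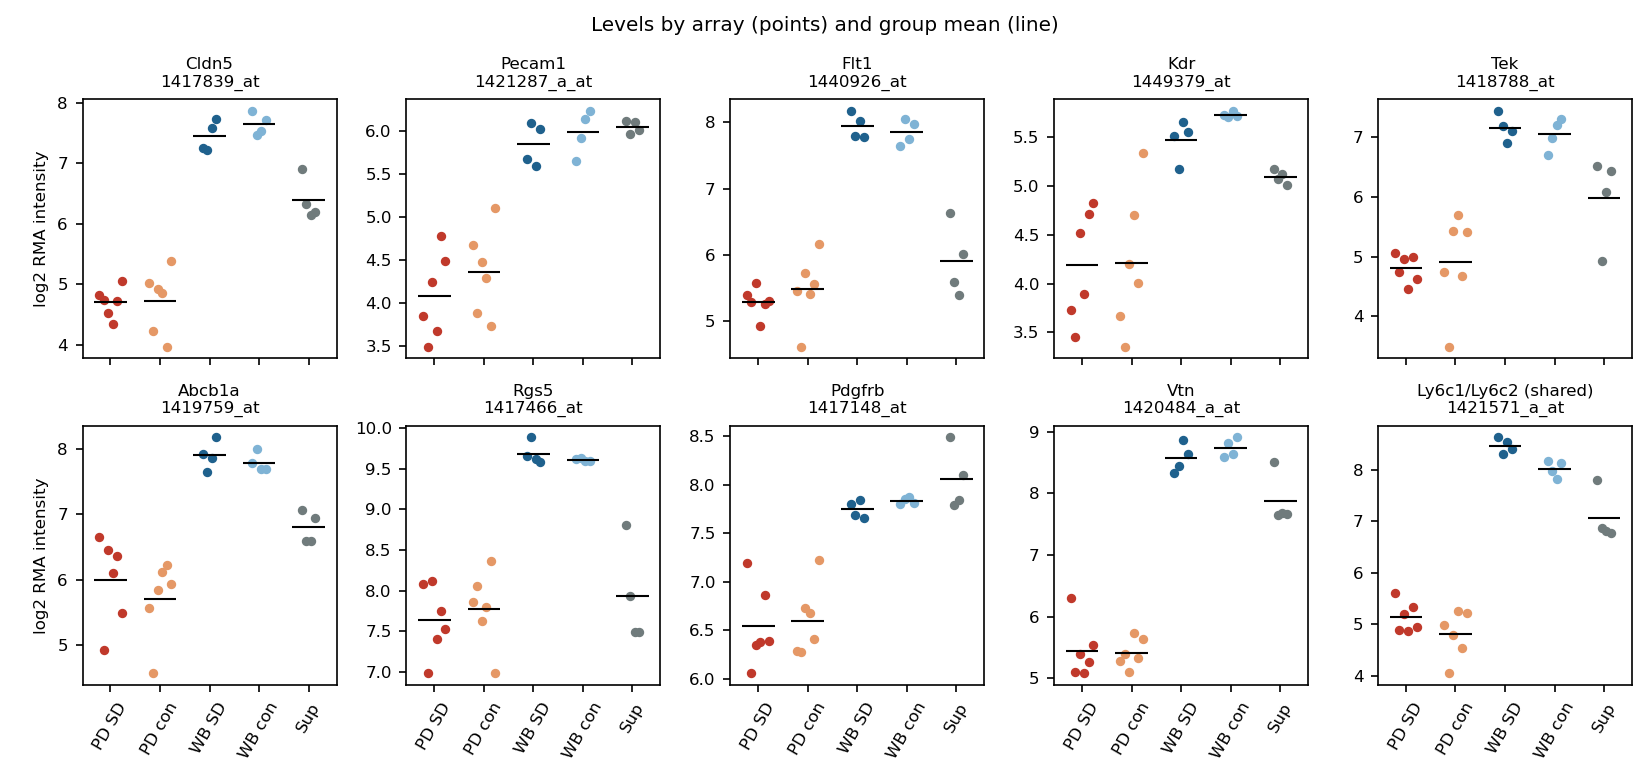
Level of each gene by 1 probe set, as log2 RMA intensity on the vertical axis (the scale differs between panels), in pull-down after sleep deprivation (PD SD, n = 6), pull-down control (PD con, n = 6), whole brain after sleep deprivation (WB SD, n = 4), whole-brain control (WB con, n = 4) and supernatant (Sup, n = 4). Points are arrays and lines are group means. In all 10 panels the pull-down means lie below the whole-brain means, and the sleep-deprived and control groups of an extract mostly overlap.

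A shift that concerned the whole array came with this. The median of all probe sets on an array was between 4.37 and 5.70 in pull-down, 6.04 and 6.24 in whole brain, and 6.09 and 6.21 in supernatant. The 18S ribosomal RNA control, which carries no poly(A) tail, read 6.55 to 12.2 in pull-down, 14.1 to 14.3 in whole brain and 14.4 to 14.6 in supernatant. The log2 difference between the 3′ and 5′ probe sets of Gapdh, which grows as RNA or cDNA gets shorter, was 3.29 to 5.96 in pull-down, 2.49 to 2.95 in whole brain and 2.31 to 2.59 in supernatant. Perfusion, fixation, polyadenylated selection, amplification and the cells tagged cannot be told apart in the comparison of pull-down with whole brain. Each difference is therefore also given after subtraction of the array's median (centred values), under which the median difference of all probe sets between pull-down and whole brain was 0.37, against -0.78 as deposited. In extracts of whole tissue, fewer cells of a type and less RNA per cell cannot be told apart.

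All 18 probe sets were lower in pull-down arrays than in whole brain. This has to be read against a background of 76.3% of all probe sets that were lower in the same comparison (68.8% with 1 probe set per gene). The median difference of the 18 was -2.21, against -0.78 for all probe sets. After centring, 15 of the 18 were lower and 0 were higher, where 18.3% of all probe sets (10.4% with 1 probe set per gene) were lower and 52% were higher. Their centred median difference was -1.06, against 0.37 for all. With quantile normalization 16 of 18 were lower, against 26.2% of all, and the median was -1.33 against 0.09. In 16 of 18 probe sets each of the 12 pull-down arrays was below each of the 8 whole-brain arrays, which held for 27.5% of all probe sets. After centring this was so for 11 of 18, against 4.97% of all.

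Cldn5, the main sealing protein of brain endothelial tight junctions, had a log2 level of 4.83, 4.74, 4.35, 4.53, 4.72 and 5.06 in pull-down after SD and 5.02, 4.23, 4.92, 3.97, 5.39 and 4.86 in pull-down control, against 7.59, 7.22, 7.73 and 7.25 in whole brain after SD and 7.53, 7.87, 7.47 and 7.72 in whole-brain control. The 4 supernatants had 6.20, 6.32, 6.91 and 6.14. Every pull-down array was below every supernatant, and every supernatant was below every whole-brain array. The difference between pull-down and whole brain was -2.83 ± 0.17 (adjusted p = 1.59e-13), or -1.67 ± 0.13 after centring. Pecam1, an adhesion molecule at endothelial cell borders, had levels in pull-down from 3.49 to 5.11 with a median of 4.27, against 5.59 to 6.24 with a median of 5.98 in whole brain. Its supernatant levels of 6.01, 5.97, 6.12 and 6.11 lay within the whole-brain range. Pecam1 was lower in pull-down arrays than in whole brain, with a log2 difference of -1.70 ± 0.18 (adjusted p = 4.40e-09), and its centred difference was -0.54 ± 0.12.

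Of the VEGF receptors, Flt1 binds VEGF tightly but signals weakly, and Kdr carries most of the signal in endothelial cells. The 4 Flt1 probe sets were lower in pull-down arrays than in whole brain, with log2 differences between -2.64 ± 0.22 (1451756_at) and -2.05 ± 0.17 (1419300_at). The Flt1 probe set 1440926_at had levels in pull-down from 4.61 to 6.16 with a median of 5.39, against 7.64 to 8.18 with a median of 7.89 in whole brain. In supernatant it had 6.01, 5.59, 6.64 and 5.39, so that supernatant overlapped pull-down and stayed below whole brain. All 4 Flt1 probe sets remained lower after centring, with log2 differences from -1.48 to -0.89. Kdr had levels in pull-down from 3.35 to 5.34 with a median of 4.11, against 5.17 to 5.77 with a median of 5.68 in whole brain. Pull-down control 11, at 5.34, was the single pull-down array within the whole-brain range. The log2 difference of Kdr was -1.40 ± 0.21 (adjusted p = 1.04e-06), and after centring it was -0.25 ± 0.14 and did not pass (adjusted p = 0.125).

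Tek, the angiopoietin receptor of endothelial cells, had levels in pull-down from 3.49 to 5.70 with a median of 4.85, against 6.71 to 7.44 with a median of 7.14 in whole brain, and 6.43, 4.93, 6.51 and 6.08 in supernatant. Supernatant 14, at 4.93, was the supernatant within the pull-down range. Tek was lower in pull-down arrays than in whole brain, with a log2 difference of -2.24 ± 0.23, or -1.09 ± 0.19 after centring. Abcb1a encodes P-glycoprotein, a pump that returns drugs from the endothelium to the blood. Its probe set 1419759_at had levels in pull-down from 4.56 to 6.65 with a median of 6.01, against 7.66 to 8.18 with a median of 7.82 in whole brain, and the groups did not overlap. The 2 Abcb1a probe sets were lower in pull-down, with log2 differences of -2.00 ± 0.21 (1419759_at) and -2.18 ± 0.24 (1419758_at), and after centring by -0.84 ± 0.18 and -1.03 ± 0.22. The probe set shared by Ly6c1, a surface protein of brain endothelium, and Ly6c2 had levels in pull-down from 4.04 to 5.61 with a median of 4.96, against 7.81 to 8.62 with a median of 8.23 in whole brain. It differed by -3.27 ± 0.17 (adjusted p = 1.45e-14), or -2.11 ± 0.13 after centring.

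The pericyte genes held both the largest and the smallest differences of the 18. Rgs5, a regulator of G protein signalling that is abundant in brain pericytes, gave the largest with probe set 1420941_at. This probe set had 5.86, 3.75, 4.11, 5.17, 5.33 and 4.56 in pull-down after SD and 4.87, 3.54, 4.53, 5.09, 4.63 and 4.35 in pull-down control, against 8.77, 8.96, 8.93 and 8.79 in whole brain after SD and 8.64, 9.07, 8.74 and 8.99 in whole-brain control. The supernatants, with 7.52, 6.57, 7.39 and 7.22, lay between both extracts without touching either. The log2 difference of pull-down minus whole brain was -4.21 ± 0.22 (adjusted p = 2.94e-14), or -3.06 ± 0.19 after centring. The other 3 Rgs5 probe sets differed by -3.36 ± 0.24 (1420942_s_at), -3.25 ± 0.23 (1420940_x_at) and -1.94 ± 0.19 (1417466_at), so that probe sets of 1 gene spanned more than 2 log2 units. The parts of the Rgs5 transcript that they measure were not looked up here.

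Vtn encodes vitronectin, an adhesive matrix protein that pericytes make in the brain. Its probe set 1420484_a_at had levels in pull-down from 5.08 to 6.30 with a median of 5.36, against 8.33 to 8.91 with a median of 8.64 in whole brain. Its second probe set, 1455098_a_at, had 3.18 to 4.79 with a median of 3.79 in pull-down, against 7.34 to 8.03 with a median of 7.59 in whole brain. The Vtn differences were -3.23 ± 0.16 and -3.78 ± 0.23, and after centring -2.07 ± 0.16 and -2.62 ± 0.21, with no overlap of pull-down and whole brain in either probe set. Pdgfrb, the receptor through which endothelial cells recruit pericytes, gave the smallest. Its probe set 1417148_at had levels in pull-down from 6.06 to 7.22 with a median of 6.40, against 7.66 to 7.87 with a median of 7.81 in whole brain, a log2 difference of -1.22 ± 0.15 (adjusted p = 8.13e-08). Its probe set 1436970_a_at had 3.77 to 6.60 with a median of 5.70 in pull-down, against 5.99 to 6.86 with a median of 6.63 in whole brain, and differed by -1.02 ± 0.29 (adjusted p = 0.00243). After centring neither Pdgfrb probe set passed, with differences of -0.07 ± 0.12 and 0.14 ± 0.38, the sign of 1436970_a_at having turned.

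**Figure D2:**
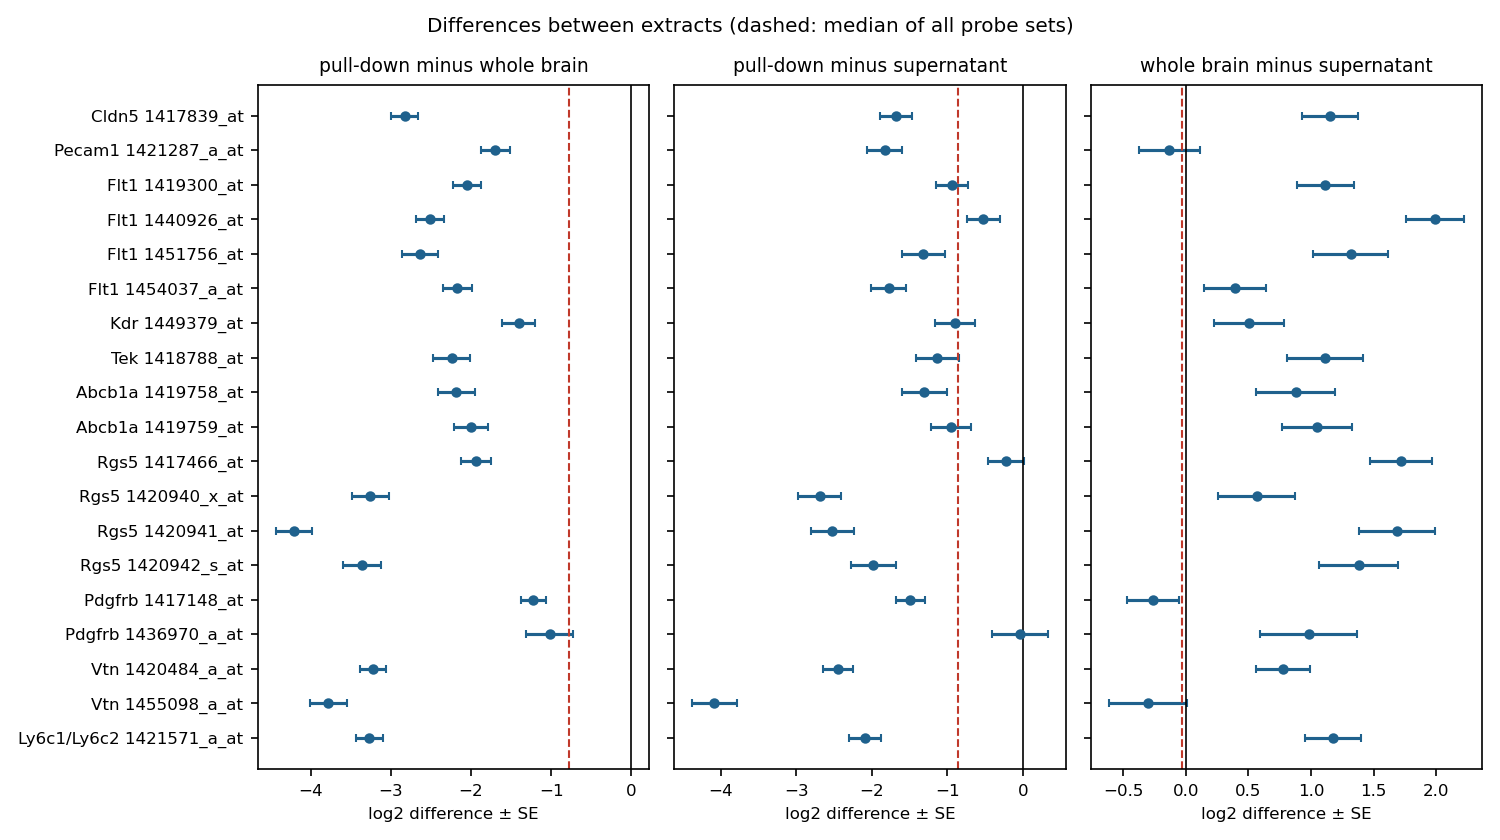
Log2 difference ± SE of the deposited values for each of the 18 probe sets and the probe set shared by Ly6c1 and Ly6c2, for pull-down minus whole brain, pull-down minus supernatant and whole brain minus supernatant (horizontal axes differ between panels). The solid line marks 0 and the dashed line the median of all 45037 probe sets. In the comparison of pull-down with whole brain all 18 lie left of the dashed line, from -4.21 for Rgs5 to -1.02 for Pdgfrb.

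**Figure D3:**
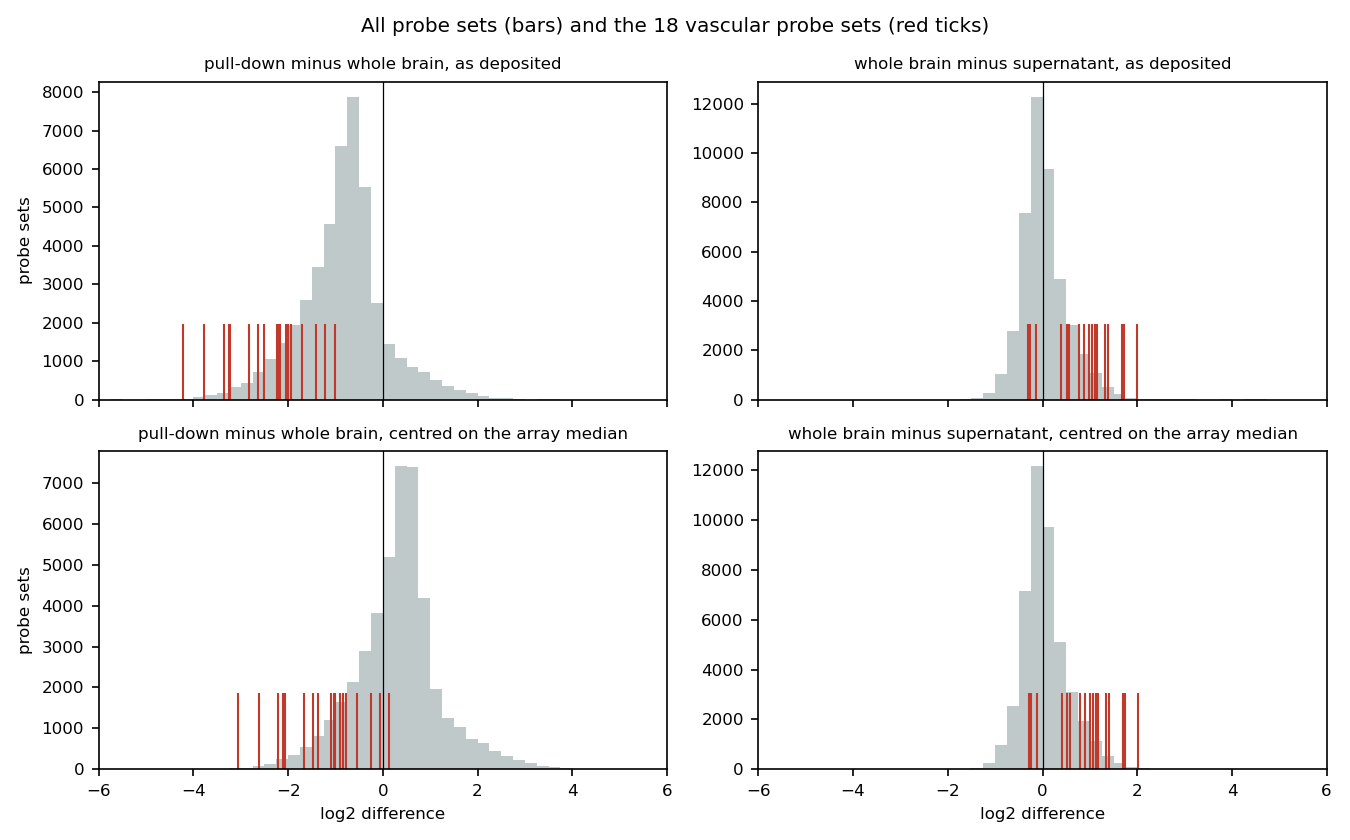
Number of probe sets (vertical axis) by log2 difference (horizontal axis, bins of 0.25) for pull-down minus whole brain and whole brain minus supernatant, as deposited and centred on the array median. Red ticks mark the 18 vascular probe sets, whose height has no meaning. For pull-down minus whole brain the ticks have a median of -2.21 where all probe sets have -0.78, and -1.06 where all have 0.37 after centring.

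The comparison of pull-down with supernatant used brains prepared by the same perfusion. Polyadenylated selection, the amplification described for precipitated RNA and the cells tagged still cannot be told apart in it. Of the 18 probe sets 16 were lower in pull-down than in supernatant, against 67.4% of all probe sets, with a median difference of -1.40 against -0.85. All 12 pull-down arrays were below all 4 supernatants in 9 of 18 probe sets, against 32.1% of all. After centring 8 of 18 were lower, against 18.8% of all, and 3 were higher, against 44.1% of all, namely Pdgfrb 1436970_a_at (1.14 ± 0.48), Rgs5 1417466_at (0.95 ± 0.29) and Flt1 1440926_at (0.65 ± 0.19). With quantile normalization 9 were lower, against 27.6% of all, and 1, Flt1 1440926_at, was higher, against 27.2%. The direction depended on the scaling: the difference was below 0 in 18 of 18 probe sets as deposited and in 11 of 18 after centring.

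The largest difference between pull-down and supernatant was in Vtn. Its probe set 1455098_a_at had 3.18 to 4.79 in pull-down, against 7.82, 7.46, 9.19 and 7.32 in supernatant, a difference of -4.08 ± 0.29 (adjusted p = 8.60e-12), or -2.91 ± 0.27 after centring. For 1420484_a_at the supernatants had 7.66, 7.64, 8.51 and 7.68, and the difference was -2.45 ± 0.20, or -1.27 ± 0.20 after centring. Cldn5 differed by -1.67 ± 0.21 (adjusted p = 1.09e-07), or -0.50 ± 0.17 after centring, and Pecam1 by -1.83 ± 0.23, or -0.66 ± 0.15. The shared Ly6c1 and Ly6c2 probe set differed by -2.09 ± 0.21, or -0.91 ± 0.17 after centring. Of the Rgs5 probe sets, 1420940_x_at, 1420941_at and 1420942_s_at differed by -2.69 ± 0.29, -2.53 ± 0.28 and -1.98 ± 0.30, and after centring by -1.51 ± 0.22, -1.35 ± 0.24 and -0.80 ± 0.28. Rgs5 1417466_at had 6.98 to 8.36 in pull-down, against 7.49, 7.93, 8.81 and 7.49 in supernatant, and its deposited difference of -0.22 ± 0.24 did not pass (adjusted p = 0.389). Pdgfrb 1436970_a_at also did not pass, with -0.04 ± 0.37 (adjusted p = 0.929), while Pdgfrb 1417148_at differed by -1.49 ± 0.20, or -0.31 ± 0.15 after centring, which did not pass (adjusted p = 0.0688). Flt1 1454037_a_at differed by -1.78 ± 0.23, or -0.60 ± 0.18 after centring, while 1451756_at (-1.32 ± 0.28) and 1419300_at (-0.94 ± 0.22) did not pass after centring, at -0.14 and 0.24. The Tek, Kdr and both Abcb1a probe sets passed as deposited, with differences between -1.30 and -0.90, and did not pass after centring, with values between -0.13 and 0.28.

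Both total RNA extracts also differed from each other. No perfusion is described for whole brain, so perfusion, fixation and the removal of precipitated RNA cannot be told apart in this comparison. The array medians of whole brain and supernatant were nearly equal, so scaling moved these values little. Of the 18 probe sets 10 were higher in whole brain than in supernatant and 0 were lower, against 8.89% of all probe sets that were higher and 2.01% that were lower. With 1 probe set per gene 6 of 9 genes were higher, against 13.2% of all genes. The count was 10 after centring, against 6.73% of all, and 11 with quantile normalization, against 11.4%. The median difference of the 18 was 1.02, against -0.03 for all. In 11 of 18 probe sets all 8 whole-brain arrays were above all 4 supernatants, which held for 12.4% of all.

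The 10 probe sets were Cldn5, Tek, Abcb1a 1419759_at, Vtn 1420484_a_at, 3 of Flt1 and 3 of Rgs5. The largest difference was in Flt1 1440926_at, at 1.99 ± 0.23 (adjusted p = 3.07e-06), followed by Rgs5 1417466_at at 1.72 ± 0.25 and Rgs5 1420941_at at 1.69 ± 0.30. The whole-brain levels of Rgs5 1417466_at were 9.62, 9.88, 9.59 and 9.65 after SD and 9.59, 9.62, 9.63 and 9.60 in control, against 7.49, 7.93, 8.81 and 7.49 in supernatant. Cldn5 differed by 1.15 ± 0.22 (adjusted p = 8.24e-04), Tek by 1.11 ± 0.31 and Abcb1a 1419759_at by 1.05 ± 0.28. The shared Ly6c1 and Ly6c2 probe set differed by 1.18 ± 0.22 (adjusted p = 6.62e-04). Differences of Pecam1 (-0.13 ± 0.24), Kdr (0.51 ± 0.28), Pdgfrb 1417148_at (-0.26 ± 0.21) and Vtn 1455098_a_at (-0.30 ± 0.31) did not pass. Nor did those of Abcb1a 1419758_at, Pdgfrb 1436970_a_at and 1 probe set each of Flt1 and Rgs5. Abcb1a 1419758_at had a mean of 5.99 in whole brain, against 5.11 in supernatant. Pdgfrb 1436970_a_at had 6.47 against 5.49.

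The supernatants were not alike. The mean of the 18 probe sets minus the array's median was 0.80 in supernatant 15, 0.53 in supernatant 13, 0.28 in supernatant 16 and 0.07 in supernatant 14, against 1.12 to 1.40 in whole brain. Vtn 1455098_a_at was at 9.19 in supernatant 15, against 7.32 to 7.82 in the other 3. Without supernatant 15 the difference of Vtn 1455098_a_at between whole brain and supernatant was 0.11 in place of -0.30, and that of Rgs5 1417466_at between pull-down and supernatant 0.07 in place of -0.22. Leaving out single arrays gave 7 to 11 probe sets higher in whole brain, with the 7 obtained without supernatant 14. For Flt1 1440926_at the difference between pull-down and supernatant lost its call without supernatant 13 (-0.49) and without supernatant 15 (-0.28).

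Genes of blood cells went in both directions once the array median was removed. Of 8 measured, 8 were lower in pull-down arrays than in whole brain, where 68.8% of all genes were, with a median difference of -0.78, against -0.64 for all genes, and after centring 3 were lower and 4 higher, where 10.4% of all genes were lower and 63.5% higher. Hbb-b2, a beta globin of red blood cells, differed by -5.52 (-4.37 after centring), and Alas2, the first enzyme of heme synthesis in red cell precursors, by -2.53 (-1.37). The 4 that were higher after centring were Hba-a1, an alpha globin (0.42), and S100a8 (0.63), Ngp (0.44) and Camp (0.52), which mark neutrophils, and they are named after their values were seen. S100a9, also a neutrophil gene, was lower after centring (-0.38). The centred median of all genes was 0.51. Hbb-b2 differed by 3.20 for whole brain minus supernatant, and 2 of the 8 genes passed in that comparison. The mean level of the 8 blood genes was 4.56 to 5.50 in pull-down, 6.39 to 6.67 in whole brain and 5.85 to 6.17 in supernatant. The part of blood removal by perfusion in the vascular differences was not tested.

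Other genes of the vessel wall were compared with 1 probe set per gene, that with the highest mean. Of 28 other endothelial genes 24 were lower in pull-down arrays than in whole brain and 0 were higher. Of all genes 68.8% were lower and 12.9% higher. The median of the 28 was -1.06, against -2.00 for the 9 vascular genes and -0.64 for all genes. After centring 9 of the 28 were lower and 11 higher, where 10.4% of all genes were lower and 63.5% higher. Their centred median was 0.09, against -0.84 for the 9 vascular genes, of which 7 were lower, and 0.51 for all genes. The other endothelial genes therefore went in both directions once the array median was removed. Slco1c1, a thyroid hormone carrier of the barrier, differed by -3.39 (-2.24 after centring), Slco1a4, an organic anion carrier, by -2.02 (-0.87), Ptprb, an endothelial phosphatase, by -1.72 (-0.56) and Emcn, an endothelial surface sialomucin, by -1.68 (-0.52). Among the 11 that were higher after centring, Slc2a1 (1.21) and Pltp (1.00) had the largest values, and both are named after their values were seen.

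Of 17 other pericyte and smooth muscle genes 17 were lower in pull-down arrays than in whole brain, with a median of -1.32, where 68.8% of all genes were lower. After centring 7 were lower and 2 higher, with a median of -0.17, where 10.4% of all genes were lower and 63.5% higher. Myl9, a myosin light chain of smooth muscle, differed by -2.71 (-1.55 after centring), Notch3, a receptor of mural cells, by -2.11 (-0.96), Cspg4, the NG2 proteoglycan that also marks oligodendrocyte precursors, by -2.01 (-0.85) and Acta2, smooth muscle actin, by -1.89 (-0.74). The 2 that were higher after centring were Des (0.55) and Cnn1 (0.42), named after their values were seen. Perivascular fibroblast and meningeal genes, which mark cells of the larger vessels and the brain's coverings, were lower in 10 of 10, with a median of -1.76, and after centring in 6 of 10 with 3 higher, against the same shares of all genes. Col1a2, a collagen chain, differed by -2.69 (-1.54 after centring) and Igf2, a growth factor made in the meninges, by -2.60 (-1.45). The 3 higher after centring were Pdgfra (0.78), Col1a1 (0.57) and Lum (0.38), also named after their values were seen.

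Ligands and co-receptors of vessel growth, not all of which act on the receptors among the 10 genes, went in both directions. Of 13 measured, 8 were lower in pull-down arrays than in whole brain and 4 were higher, and after centring 2 were lower and 6 higher. Of all genes 68.8% were lower and 12.9% higher as deposited, and 10.4% were lower and 63.5% higher after centring. Pdgfa, a platelet-derived growth factor chain that neurons also make, was higher by 1.85 (3.00 after centring). Nrp1, a co-receptor of VEGF and semaphorins that is present on both neurons and endothelium, was higher by 1.67 (2.83). Vegfb, a ligand of Flt1, was lower, with a difference of -1.59 (-0.43 after centring). Nrp2, the other neuropilin, was lower, with a difference of -1.55, and after centring its difference of -0.40 did not pass (adjusted p = 0.177).

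Markers of other brain cells give the range against which the vascular values stand, and their counts are to be read against 68.8% of all genes lower and 12.9% higher as deposited, and 10.4% lower and 63.5% higher after centring. Of 14 neuron genes 7 were lower and 3 higher in pull-down arrays than in whole brain (4 lower and 7 higher after centring), and their mean level was 8.96 to 11.1 in pull-down, against 10.7 to 10.9 in whole brain. The largest deposited differences among them were in Uchl1 (-3.79, or -2.63 after centring) and Tubb3 (-2.75, or -1.60), both abundant neuronal proteins. Rbfox3, the nuclear neuron marker NeuN, went the other way (1.45, or 2.61 after centring), as did Camk2a, a kinase of excitatory neurons (2.05 after centring), both named after their values were seen. Of 11 astrocyte genes 9 were lower and 1 higher (5 and 2 after centring), with the largest differences in Mlc1 (-3.98, or -2.82 after centring) and Aldoc (-3.27, or -2.11). The astrocyte gene that was higher was Gfap, an intermediate filament (1.69, or 2.84 after centring), joined after centring by Gja1, a gap junction protein (1.26), and both are named after their values were seen. Of 9 oligodendrocyte genes 8 were lower (6, with 1 higher, after centring), with the largest in the myelin genes Mobp (-3.20) and Mag (-2.78). Of 10 microglia genes 10 were lower (5, with 1 higher, after centring), with the largest in Aif1 (-3.20) and C1qa (-1.95). The centred medians were 0.49 for neuron genes, -0.22 for astrocyte genes, -0.73 for oligodendrocyte genes and -0.46 for microglia genes, beside -0.84 for the 9 vascular genes.

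**Figure D4:**
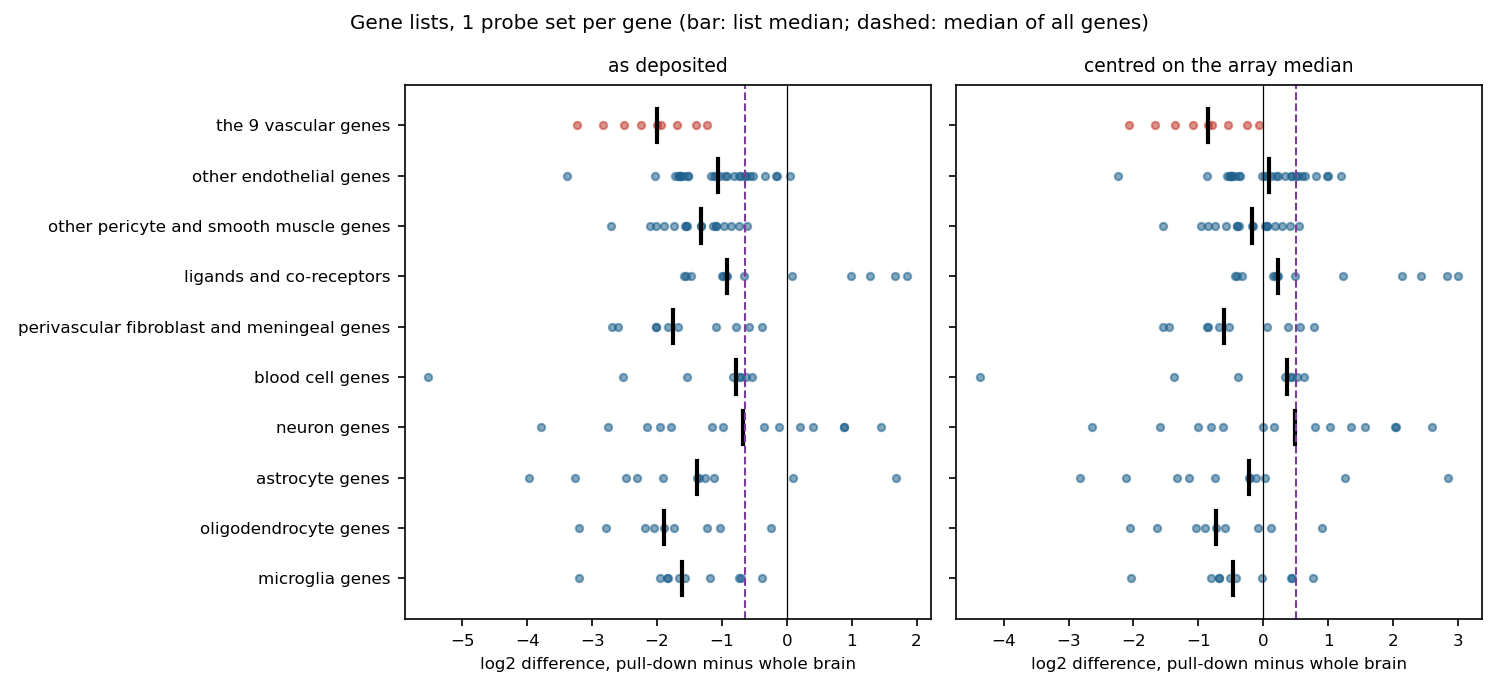
Log2 difference of pull-down minus whole brain (horizontal axis) for each gene of 10 lists, by 1 probe set per gene, as deposited and centred on the array median. Points are genes, bars are list medians and the dashed line is the median of all 18193 genes. The 9 vascular genes have a median of -2.00 as deposited and -0.84 after centring, and the 28 other endothelial genes have -1.06 and 0.09.

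Sleep deprivation was compared within each extract. In pull-down 0 of 18 probe sets passed, where 0% of all probe sets did (0 of 45037, with 430 at an unadjusted p below 0.05, of which 0 were among the 18). The differences of SD minus control ranged from -0.30 (Abcb1a 1419758_at) to 0.29 (Abcb1a 1419759_at and Rgs5 1420941_at), with a median of -0.07, against -0.05 for all. The 95% confidence intervals were wide: that of Cldn5 ran from -0.58 to 0.52, that of Kdr from -0.74 to 0.69 and that of Rgs5 1420941_at from -0.45 to 1.03. Over the 18 probe sets the lower ends ran from -0.97 to -0.41 and the upper ends from 0.34 to 1.13. With 6 arrays against 6, changes inside a probe set's own interval are not excluded.

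In whole brain 0 of 18 passed, where 0.0466% of all probe sets did (21 of 45037). The 95% intervals were narrower, for example from -0.51 to 0.10 for Cldn5 and from -0.26 to 0.27 for Rgs5 1420941_at. An unadjusted p below 0.05 was reached by 2 of the 18, against 4926 of all 45037 probe sets. These shares are about equal, so the 18 did not stand out from all probe sets. Flt1 1419300_at had 6.52, 6.82, 6.51 and 6.74 in whole brain after SD, against 6.75, 7.00, 7.21 and 6.99 in whole-brain control, a difference of -0.34 ± 0.13 (adjusted p = 0.381), and the ranges overlapped. The remaining Flt1 probe sets differed by -0.24, 0.03 and 0.10. Kdr had 5.65, 5.17, 5.56 and 5.51 in whole brain after SD, against 5.77, 5.73, 5.71 and 5.72 in whole-brain control. Its difference of -0.26 ± 0.12 did not pass (adjusted p = 0.456). The probe set shared by Ly6c1 and Ly6c2 had 8.53, 8.30, 8.39 and 8.62 after SD, against 7.81, 8.16, 7.97 and 8.12 in control. The difference of 0.45 ± 0.12 did not pass (adjusted p = 0.274).

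The effect of SD in pull-down minus that in whole brain passed in 0 of 18 probe sets, where 0% of all probe sets passed (0 of 45037, with 152 at an unadjusted p below 0.05 and 0 of these among the 18). Of the other vessel genes none of 28 endothelial, 17 pericyte and smooth muscle, and 13 ligand genes passed in either extract as deposited. In whole brain the 2 endothelial genes with the smallest p were Mfsd2a, a lipid transporter of the barrier (0.67, adjusted p = 0.121), and Slc2a1, its glucose transporter (0.51, adjusted p = 0.164). Those of pericytes and smooth muscle were Kcnj8, a potassium channel (-0.59, adjusted p = 0.426), and Cspg4 (-0.30, adjusted p = 0.447), and those of the ligands were Vegfc (-0.39, adjusted p = 0.417) and Pdgfa (0.45, adjusted p = 0.475). In pull-down they were Vwf (-0.43) and Foxq1 (-0.47) among endothelial genes, Abcc9 (1.53) and Heyl (-0.32) among pericyte and smooth muscle genes, and Pdgfa (0.40) and Angpt2 (0.29) among ligands, all with an adjusted p that rounded to 1. Mfsd2a passed as higher after SD in whole brain under both other scalings, with 0.76 ± 0.12 after centring (adjusted p = 0.0235) and 0.76 ± 0.12 with quantile normalization (adjusted p = 0.0306), where 0.102% and 0.107% of all probe sets passed. No other gene of these 3 lists passed for SD in pull-down or whole brain under those scalings.

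**Figure D5:**
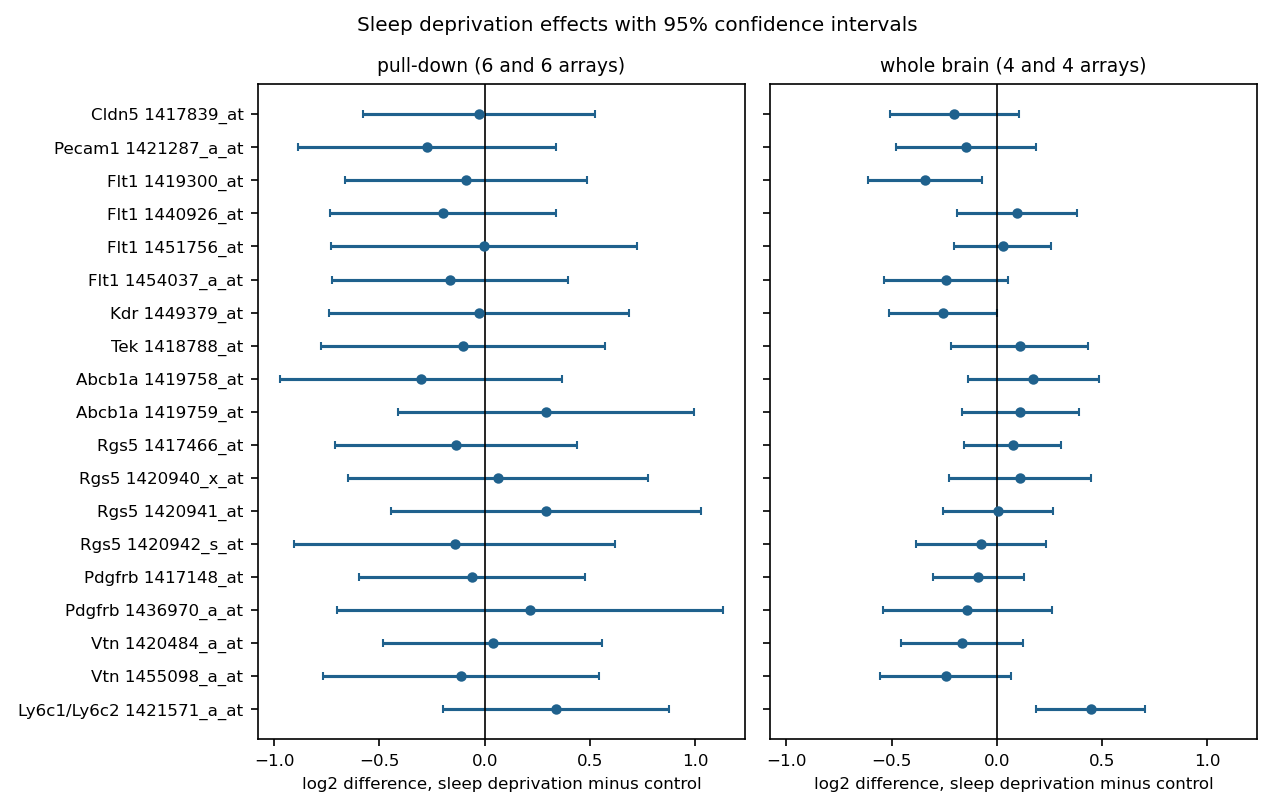
Log2 difference of sleep deprivation minus control with its 95% confidence interval (horizontal axis) for the 18 probe sets and the probe set shared by Ly6c1 and Ly6c2, in pull-down (6 arrays against 6) and whole brain (4 against 4). The line marks 0. All intervals in pull-down include 0, and in whole brain those of Flt1 1419300_at, Kdr and the shared probe set do not.

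To describe which other genes followed the vascular genes, each gene's centred level over the 24 arrays was correlated with the mean of the standardized levels of the 9 genes. These are correlations over arrays of 3 extracts that differ in preparation, so they describe differences between extracts. Mgp, matrix Gla protein of vessel walls, came first with r = 0.946, followed by Hbb-b2 (0.943), Anxa2 (0.929), Ahnak (0.923), Tsnax (0.906), Atp5b (0.889), Tns1 (0.889), Plaat3 (0.889), Ndufa9 (0.887) and Klhl21 (0.878). Among the 9 genes themselves Cldn5 ranked at place 6 of 18193, Vtn at 11, Flt1 at 12, Tek at 38 and Abcb1a at 80, whereas Rgs5 ranked at 390, Pecam1 at 1203, Kdr at 1367 and Pdgfrb at 2471. Each of the 9 is part of the mean it was correlated with, which raises its rank. Their places are therefore not comparable with those of the other lists. The first 200 places, which hold 1.1% of all genes, included 5 of the 9 genes themselves, 1 of 28 other endothelial, 2 of 17 pericyte and smooth muscle, 0 of 13 ligand, 1 of 10 perivascular fibroblast, 2 of 8 blood, 0 of 14 neuron, 1 of 11 astrocyte, 1 of 9 oligodendrocyte and 3 of 10 microglia genes.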

How the data were processed

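Per the submitters' processing notes, the authors made the deposited log2 intensities with RMA in the affy package. Versions, and which arrays were normalized together, are not given in the sources used here. Of 45101 probe sets 64 controls were left out. The annotation of 2016 gave 34945 probe sets 1 gene symbol, 932 several and 9160 none. Array numbers limit the precision. Whether arrays of a group came from separate animals is labelled only by number, so p-values measure the spread between these samples. No 2 arrays were identical (highest r = 0.991).

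Values were used as deposited. limma 3.58.1 in R 4.3.3 (lmFit, eBayes, two-sided, Benjamini-Hochberg, threshold 0.05) was fitted to all 24 arrays for the extracts, with SD and control weighted equally, and to the 12, 8 and 20 arrays concerned for SD and its interaction. These fits were tested on simulated data with 1 spread per probe set for all groups. In the data the spread differed between groups, which that test does not cover. The members and gene lists were chosen with earlier results of these data known. Named genes of other lists are the 4 (vessel lists and ligands) or 2 (other lists) with the largest difference between pull-down and whole brain, and for SD the 2 with the smallest p. Lists left out 9 genes without a probe set of their own. Alternatives were 2 other scalings, an intensity trend, array weights, a filter on dim probe sets, 1 probe set per gene and arrays left out.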

Additional observations from a re-analysis of the deposited data

Results flagged for a closer look

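In 4 of the 95 sets formed by a probe set and a group, 1 array lay far from the others of its group, by a gap to its nearest neighbour that was large against the group's range. Chance gives about 1 in 20 such sets. Abcb1a 1419758_at was at 3.84 in supernatant 14, where the nearest supernatant was at 5.41. Vtn 1420484_a_at was at 8.51 in supernatant 15, with the nearest at 7.68. The probe set shared by Ly6c2 and Ly6c1 was at 7.80 in the same supernatant 15, with the nearest at 6.86. Rgs5 1420940_x_at was at 5.55 in pull-down control 11, with the nearest pull-down control at 4.33.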

How the results depend on the processing

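The count of probe sets lower in pull-down arrays than in whole brain was 18 with each single array left out, and the median difference was then between -2.27 and -2.12. With quantile normalization that median was -1.33 and with centring -1.06. With 1 probe set per gene 9 of 9 genes were lower in pull-down arrays than in whole brain, against 68.8% of all genes in the main fit. In whole brain 6 were higher than in supernatant, against 13.2%. In pull-down 8 were lower than in supernatant. For that comparison the share of all genes was not counted, and 67.4% of all probe sets were lower. The count lower in pull-down than in supernatant was 9 with quantile normalization, 8 with centring and 15 to 16 with single arrays left out. The count higher in whole brain than in supernatant was 7 to 11 with single arrays left out, 15 with array weights and 14 in a fit of those 12 arrays alone. The shares of all probe sets under these alternatives were not counted, so a rise or fall of the count is not particular to the 18. Counts of the 18 probe sets for sleep deprivation and its interaction were 0 under every alternative run, while the endothelial gene Mfsd2a, not among the 18, passed in whole brain with both other scalings. Leaving out the 2 pull-down arrays with the highest 18S signal (pull-down control 3 and pull-down after SD 1), or these and pull-down control 11, kept the counts for pull-down at 18 and 16. These 2 alternatives do not touch SD in whole brain.

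Some single differences changed sign, and the cause was not tested. For pull-down minus supernatant, quantile normalization and centring gave 0.43 and 0.95 for Rgs5 1417466_at, 0.20 and 0.24 for Flt1 1419300_at, 0.64 and 0.65 for Flt1 1440926_at, 0.15 and 0.22 for Abcb1a 1419759_at, 0.15 and 0.28 for Kdr, and 0.94 and 1.14 for Pdgfrb 1436970_a_at. Centring gave 0.045 for Tek. Array weights gave 0.070 for Pdgfrb 1436970_a_at and leaving out the 3 arrays gave 0.036. With single arrays left out, Pdgfrb 1436970_a_at ranged from -0.28 to 0.12 and Rgs5 1417466_at from -0.37 to 0.074. For pull-down minus whole brain, centring gave 0.14 for Pdgfrb 1436970_a_at. For whole brain minus supernatant, Vtn 1455098_a_at ranged from -0.51 to 0.11 with single arrays left out. No paired analysis was possible because the groups compared share fewer than 2 replicate numbers. In pull-down 11 of 18 probe sets averaged below the array median, against 3 in whole brain and 7 in supernatant. By definition as many probe sets of an array lie below its median as above it, so the pull-down count is near that share. Whether low signal limits those levels was not tested.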
